A study of Mus musculus with 16 samples.

Results

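Label-retaining and cycling DN3 thymocytes of Lmo2-transgenic mice were compared in 6 of the 16 libraries of the series, 3 of GFPhi and 3 of GFPlo cells, over every gene of their count table. The members are the libraries whose labels give them as GFP high or GFP low DN3 cells, and each carries its replicate number from the label. All 6 came from H2B-GFP;Lmo2Tg mice on a C57BL/6 background by the labels (C57BL/6J in the methods), which hold the TetOP-H2B-GFP knock-in on 1 allele together with the CD2-Lmo2 transgene. The mice took doxycycline for 6 weeks and were then chased without it for 2 weeks. GFPhi cells kept the histone label over the chase and GFPlo cells had diluted it. Both groups share the genotype, the transgene and the treatment as described, and were separated by the sorting gate. The labels give neither the sex of the mice nor the make-up of the pools, so whether the libraries also differ in these is not known. Mice without the transgene are not part of this comparison. Mice were 2 months old at the GFP profiling, while the account of RNA extraction, from pools of 3 to 5 mice, has an age of 6 weeks. RNA with a poly-A tail was sequenced. The profiled cells are described as coming from 3 independent cohorts, and no source used here says that a replicate number marks a cohort. Because each library is a pool, its value is a mean over mice. CD2 sequences drive the transgene in T cells from their early stages on, so Lmo2 is carried by GFPhi and GFPlo cells alike.

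DN3 thymocytes are CD4-CD8-CD25+CD44- progenitors that rearrange the T-cell receptor beta chain under Notch signals, and their survival past this stage depends on the pre-T-cell receptor. LMO2 is a LIM-domain adaptor that joins LYL1 or TAL1, LDB1 and GATA factors on DNA, and its enforced expression in the thymus lets DN3 cells self-renew long before leukemia appears. A histone H2B-GFP label is halved at every division, so the brightness left after a chase records how often a cell has divided and not whether it divides at the time of sorting.

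Total counts were 27469985, 29352796 and 26906457 in GFPhi replicates 1, 2 and 3, and 26861394, 28436894 and 31106213 in GFPlo replicates 1, 2 and 3. Between 13316 and 13766 genes had at least 1 count. Levels are given as CPM, counts scaled to the TMM-normalized library total, and 3 counts, the limit that a count of 0 allows, correspond to between 0.0966 and 0.112 CPM in these libraries. Such limits and the intervals below cover counting error only. CPM are not divided by transcript length, so levels are compared between libraries and not between genes.

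The 3 GFPhi libraries were not alike. The leading principal component, with 63% of the variance, placed GFPhi replicates 1, 2 and 3 at -35.3, -36.3 and -59.6 and GFPlo replicates 1, 2 and 3 at 37.6, 46.5 and 47.1. The next component, with 27%, held GFPhi replicates 1 and 2 at 32.4 and 34.9 and GFPhi replicate 3 at -52.3, with the GFPlo libraries between -8.38 and -0.32. The chi-square of the counts per degree of freedom was 7.36 between GFPhi replicates 1 and 2, against 109.6 and 128.4 for their pairs with replicate 3 and between 9.38 and 25.8 for the GFPlo pairs, so no pair of libraries agreed within sampling noise.

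Y-linked genes also differed between libraries of the same group. Ddx3y, an RNA helicase of the Y chromosome, was at 155, 168 and 0.223 CPM in GFPhi replicates 1, 2 and 3 and at 29.7, 5.76 and 4.44 CPM in GFPlo replicates 1, 2 and 3. The 4 Y-linked genes together came to 338, 367 and 0.745 CPM in GFPhi and 77.4, 14.5 and 9.15 CPM in GFPlo libraries. GFPhi replicate 3 thus lay below every GFPlo library and GFPhi replicates 1 and 2 above, and none of the 4 genes passed an adjusted p of 0.05 (log2 fold change of Ddx3y 3.02, standard error 1.66, edgeR adjusted p = 0.255). The labels do not give the sex of the pooled mice, and the part of this difference between libraries in the results below was not tested.

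**Figure D1:**
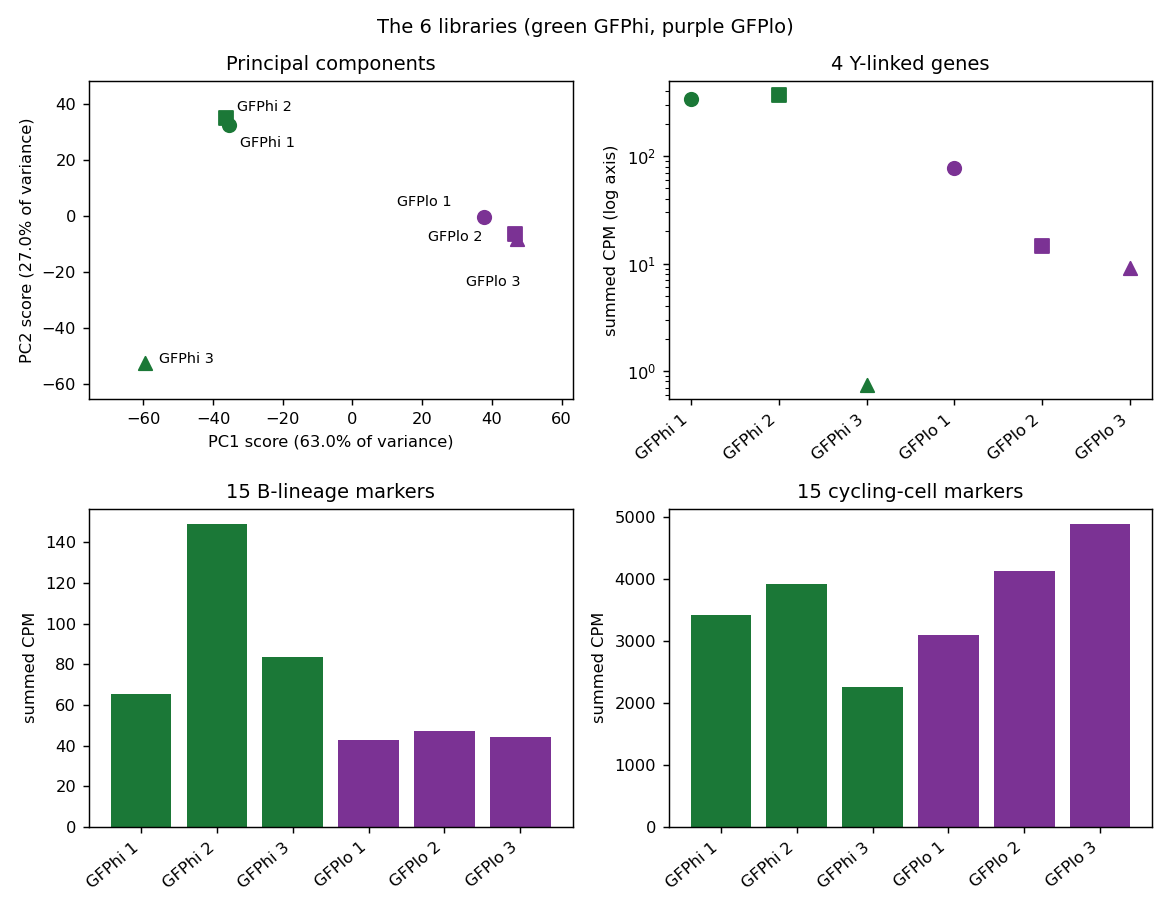
Scores of the 6 libraries on the leading principal components, and summed CPM of 4 Y-linked genes (log axis), 15 B-lineage markers and 15 cycling-cell markers by library, green for GFPhi and purple for GFPlo. GFPhi replicate 3 stands apart on the second axis and in the Y-linked sum (0.745 CPM), GFPhi replicate 2 holds the highest B-lineage sum (149 CPM), and the cycling sum runs from 2253 to 4890 CPM with overlap of the groups.

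Markers of the labelled cell type were present in every library. All 15 DN3 markers were tested and their summed level lay between 13338 and 15285 CPM. No library of another cell type enters this comparison, so the sum does not measure purity. A single DN3 marker, Il2ra, passed an adjusted p of 0.05, beside 5.37% higher and 9.49% lower among all tested genes. Il2ra, which encodes the CD25 chain of the IL-2 receptor, was at 2458, 2287 and 3225 CPM in GFPhi and 1654, 1563 and 1761 CPM in GFPlo libraries. The GFPhi libraries lay above the GFPlo libraries without overlap, although the rise stayed under 2-fold (log2 fold change 0.68, standard error 0.14, edgeR adjusted p = 0.0294) and the adjusted p reached 0.14 when a library was left out. Dtx1, a Notch target, was at 716 and 717 CPM in GFPhi replicates 1 and 2 but at 261 CPM in replicate 3, next to 362, 285 and 257 CPM in GFPlo libraries.

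Several B-lineage markers were higher in GFPhi libraries, and most lost significance when any GFPlo library was left out. Of 12 B-lineage markers tested, 8 had an adjusted p under 0.05 and were higher in GFPhi and none was lower, against 5.37% and 9.49% of all tested genes higher and lower at that threshold. Without GFPlo replicates 1, 2 or 3 the count was 2, 0 and 1 of 13 tested, and without GFPhi replicates 1, 2 or 3 it was 8, 8 and 10. Their sum over 15 genes was 65.4, 149 and 83.6 CPM in GFPhi and 42.9, 46.9 and 44.3 CPM in GFPlo libraries. Cd79b had the most counts of the list, at 19.4, 22.1 and 27.6 CPM in GFPhi and 21.6, 23.8 and 22 CPM in GFPlo libraries, with overlap. Vpreb3 was at or under 3 counts in every library. GFPhi replicate 2 was highest for most members, and Ms4a1, the CD20 antigen, was at 1.87, 7.58 and 2.23 CPM in GFPhi replicates 1, 2 and 3. Elane of the myeloid list, Ppbp of the platelet list, Col3a1 and Pdgfra of the stromal list and Il17a were at 0 in all 6 libraries.

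Genes were called at an adjusted p below 0.05 and a change above 2-fold, with edgeR's quasi-likelihood test and Benjamini-Hochberg adjustment over 11581 genes. This called 731 genes (6.31%), with 187 higher (1.61%) and 544 lower (4.7%) in GFPhi cells. In each of these the 3 GFPhi libraries lay entirely above or entirely below the 3 GFPlo libraries, so GFPhi replicate 3 shared the direction of replicates 1 and 2 in all of them. The test itself favours such agreement, since a GFPhi library on the other side widens the spread. Without any test, the libraries did not overlap in 41.3% of the tested genes, higher in 19.6% and lower in 21.7%. At an adjusted p below 0.01, 261 genes passed (2.25%), of which 35 were higher (0.302%) and 226 lower (1.95%). Without GFPhi replicate 3 the 5% threshold called 1350 of 11745 genes (11.5%), and without GFPlo replicates 1, 2 or 3 it called 424, 196 and 259. Of the 731 genes, 189 were called in each of the 6 fits that leave out a library. Fewer cells of a type and less RNA per cell cannot be told apart in these bulk libraries.

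Surface genes were called more often than genes in general, in both directions. Of 1340 genes listed as surface proteins, 527 passed the filter on low counts, and 101 of these were called (19.2%), with 24 higher (4.55%) and 77 lower (14.6%). Of all tested genes 6.31% were called, 1.61% higher and 4.7% lower, so falls outnumbered rises among surface genes much as they did among all genes. Their median log2 fold change was -0.20, against 0.02 over all genes, and the median of their mean level was 8.91 CPM, against 39.6 CPM over all genes. A gene near 0 in one group passed the filter through the other group alone, so the counts speak for the tested genes and not for all listed ones. Without GFPhi replicate 3, 59 were called higher and 129 lower. Without GFPlo replicates 1, 2 or 3, 54, 22 and 31 were called, and without GFPhi replicate 1 there were 57.

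Several receptors of contact and guidance cues fell in label-retaining cells, while most tested members of their families were not called. Of 22 receptor tyrosine kinases tested 7 fell and none rose, and of 27 guidance receptors and ligands 6 fell and none rose, against 4.7% lower and 1.61% higher among all tested genes. Of these, 4 of the 7 kinases and 2 of the 6 guidance genes were called in each fit that left out a library. Ephb4, a receptor for ephrin-B2 (chromosome 5 from 137350109 to 137378669 on GRCm38), was at 0.514, 0.444 and 0.447 CPM in GFPhi and at 24.6, 34.7 and 41.3 CPM in GFPlo libraries. GFPhi replicate 3 was as low as the others (log2 fold change -6.15, standard error 0.26, edgeR adjusted p = 0.00101). Plxnb2, a semaphorin receptor, was at 0.367, 1.06 and 0.484 CPM against 20.9, 31.5 and 31 CPM (log2 fold change -5.43, standard error 0.42, edgeR adjusted p = 0.00197). Plxnd1, another plexin, kept 7.09, 7.99 and 6.59 CPM in GFPhi against 48.3, 58.9 and 63 CPM in GFPlo libraries. The groups were far apart in each of these genes, and each was called in every fit that left out a library. Neo1, the netrin and RGM receptor neogenin, fell by 5.02 on the log2 scale, a call lost without GFPlo replicates 2 or 3 (adjusted p up to 0.0727), and the pseudokinase Ptk7 of planar cell polarity fell by 2.05. Kit, the receptor for stem cell factor, was at 195, 198 and 141 CPM in GFPhi and 349, 382 and 340 CPM in GFPlo libraries, just past 2-fold (log2 fold change -1.0, standard error 0.14, edgeR adjusted p = 0.0101). It was not called without GFPhi replicate 3, where its log2 fold change was -0.85, or without GFPlo replicate 2, where its adjusted p was 0.0626.

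Among adhesion molecules, channels and GPI-anchored proteins, most tested members were not called. Of 77 adhesion genes tested, 16 fell and 3 rose, of 72 ion channels 14 fell and 3 rose, and of 19 Ly6, Art2 and other GPI-anchored proteins 6 fell and none rose, beside 4.7% lower and 1.61% higher among all tested genes. Of these called genes, 7 of 19 adhesion genes, 4 of 17 channels and 1 of 6 GPI-anchored proteins were called in each fit that left out a library. Fibcd1, a receptor that binds acetylated sugars, had 2 counts in the 3 GFPhi libraries together and was at 5.4, 6.11 and 7.31 CPM in GFPlo libraries, a ratio of 263 with a 95% exact interval from 72.6 to 2180. Kcna4, a voltage-gated potassium channel, had no count in any GFPhi library and 1.18, 1.19 and 1.03 CPM in GFPlo libraries, so it was at least 31.4-fold lower when 3 counts are set for the GFPhi group, a call lost without GFPlo replicate 2 (adjusted p 0.0602). Cd248, the C-type lectin endosialin, was at 0.0735, 0.0341 and 0.0745 CPM against 2.55, 2.93 and 2.03 CPM (log2 fold change -5.28, standard error 0.37, edgeR adjusted p = 0.00175). Cd9, a tetraspanin, fell from a mean of 9.5 ± 2.51 CPM (SD, n = 3) in GFPlo to 0.497 ± 0.233 CPM (SD, n = 3) in GFPhi libraries. Ano6, a phospholipid scramblase and channel on chromosome 15, was at 233, 252 and 216 CPM against 484, 492 and 503 CPM, with little spread in either group. Ly6c1 was at 3.12, 3.45 and 3.13 CPM in GFPhi and 26.3, 25.7 and 31.8 CPM in GFPlo libraries, and was called in each of those fits, whereas Ly6a was called in 1 of the 6 (adjusted p up to 0.119). Ly6c1 and Ly6a, the Sca-1 antigen, lie with Ly6k on chromosome 15, which holds 6 of the 77 surface genes that fell and 39 of all 544 genes that fell. Chromosome 2, which carries Fibcd1 and Kcna4, holds 4 of those 77 and 59 of those 544 genes. Gains of both chromosomes in GFPlo cells are reported by the paper. With both left out, 10204 genes were tested instead of 11581. That fit called 435 genes lower and 149 higher, against 544 and 187 with all chromosomes. The part of chromosome copy number in these falls was not tested. The called Pcdhg protocadherins share exons with each other, so reads could be split between them.

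**Figure D2:**
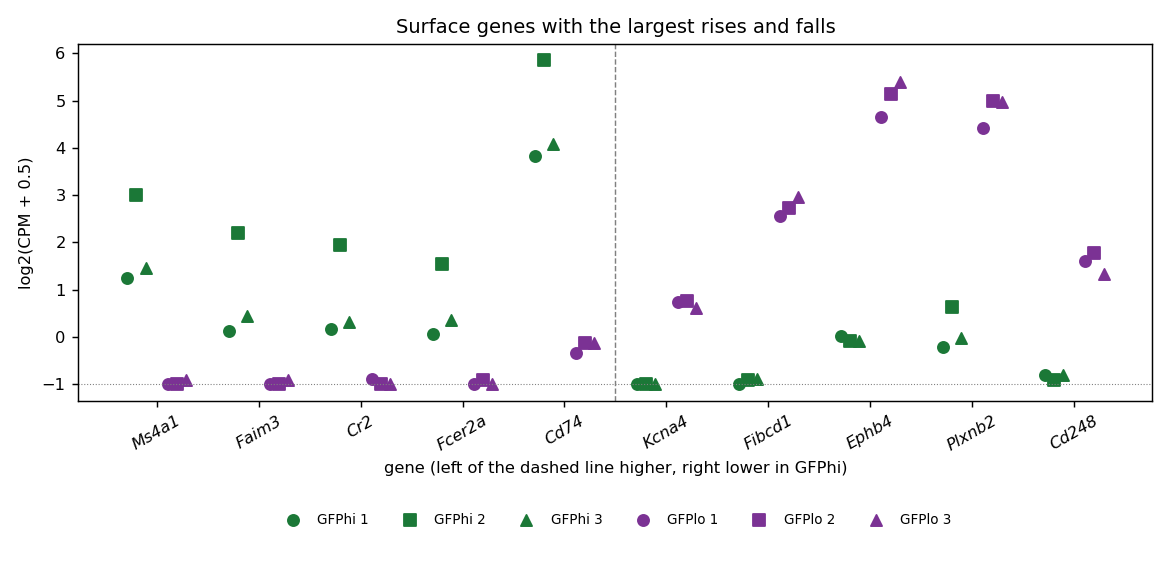
Level of the 5 surface genes with the largest rise and the 5 with the largest fall, as log2(CPM + 0.5), a point for each library (green GFPhi, purple GFPlo, shapes for replicates 1 to 3). The dotted line marks 0 CPM. The groups do not overlap in any of the 10 genes, and GFPhi replicate 2 (square) is highest of the GFPhi libraries in each of the 5 genes that rose.

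The largest rises among surface genes were led by GFPhi replicate 2. The 5 largest rises were Ms4a1, Faim3, Cr2, Fcer2a and Cd74, which are genes of B cells or of antigen presentation. Ms4a1 had 1 count over the GFPlo libraries together, and its ratio was 346 with a 95% exact interval from 61.7 to 13723. Cd74, the invariant chain of MHC class II, was at 13.7, 57.4 and 16.4 CPM in GFPhi and at 0.296, 0.419 and 0.419 CPM in GFPlo libraries (log2 fold change 6.25, standard error 0.75, edgeR adjusted p = 0.00645). Its exons overlap another annotated gene on the same strand. GFPhi replicate 2 was over 2-fold above both other GFPhi libraries in 7 of the 24 surface genes that rose, GFPhi replicate 3 was so in 2, Csf2ra and Lilrb4, and GFPhi replicate 2 in 21 of all 187 genes that rose. Those 21 include Pax5, Ciita, Cybb, H2-Aa, H2-Eb1, Bank1 and the complement genes C1qa and C1qc. The B-lineage sum was highest in the same library, at 149 CPM, and its part in these rises was not tested. The calls of Faim3, Cr2 and Fcer2a did not hold without any of the GFPlo libraries in turn (adjusted p up to 0.127), that of Ms4a1 was lost without GFPlo replicates 2 or 3 (up to 0.0733), and that of Cd74 without GFPlo replicate 2 (0.0521) and in limma-voom (0.0678).

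Other surface genes rose without a single GFPhi library over 2-fold above both others. Podxl, a sialomucin of the CD34 family (chromosome 6 from 31519488 to 31563981 on GRCm38), was at 112, 78.4 and 115 CPM in GFPhi and 17.4, 19.9 and 10.3 CPM in GFPlo libraries (log2 fold change 2.68, standard error 0.29, edgeR adjusted p = 0.00482). Itgae, the CD103 integrin chain that binds E-cadherin (chromosome 11 from 73090583 to 73147446), was at 5.73, 7.95 and 4.69 CPM against 0.518, 0.559 and 0.483 CPM (log2 fold change 3.55, standard error 0.27, edgeR adjusted p = 0.00191). Every GFPhi library lay several-fold above every GFPlo library in both genes, and both were called in each fit that left out a library. P2rx1, an ATP-gated channel, was at 7.9, 10.4 and 9.13 CPM against 3.33, 2.79 and 3.64 CPM and held likewise. Epcam, an epithelial adhesion molecule also found on thymocytes, was at 56.4, 36.8 and 79.5 CPM against 22.7, 15.7 and 19.1 CPM, a call lost without GFPhi replicate 1 or any of the GFPlo libraries in turn (adjusted p up to 0.112). The defining epithelial genes Krt5, Krt8, Foxn1 and Psmb11 were each at or under 3 counts in all 6 libraries. Tnfrsf9, the costimulatory receptor 4-1BB, rose by 2.65 and the early activation antigen Cd69 by 1.01 on the log2 scale (edgeR adjusted p = 0.0143 and 0.0271). The call of Tnfrsf9 was lost without any of the GFPlo libraries in turn (adjusted p up to 0.0869), and that of Cd69 without GFPhi replicates 1 or 2 or GFPlo replicates 2 or 3 (up to 0.129).

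Metabolic genes were called about as often as genes in general. Of 1782 listed, 1088 were tested and 81 called (7.44%, against 6.31% of all tested genes), with 18 higher and 63 lower, and their median log2 fold change was 0.00. Without GFPhi replicate 3, 46 were called higher and 111 lower, and without GFPlo replicates 1, 2 or 3 there were 50, 29 and 35 calls in all. Among 89 nuclear-encoded genes of oxidative phosphorylation 1 was called, Cox4i2, and among 82 purine and pyrimidine genes 1, Samhd1. Of 34 pyruvate and TCA cycle genes 2 were called, of 41 glycolysis and glucose uptake genes 4, and of 38 amino acid and peptide transporters 7. With each library left out in turn, none of those 2, 2 of those 4 and 2 of those 7 were called in every fit.

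Single genes of glucose use moved while most genes of the pathway were not called. Eno1, a glycolytic enolase (chromosome 4 from 150236721 to 150248879 on GRCm38), was at 53.7, 53.9 and 58 CPM in GFPhi and at 25, 24.3 and 24.1 CPM in GFPlo libraries. The 3 GFPhi values were close to each other and over 2-fold above the GFPlo values (log2 fold change 1.17, standard error 0.07, edgeR adjusted p = 0.0014). Its neuronal-type isozyme Eno2 was at 0.0367, 0.102 and 0.186 CPM against 0.481, 1.54 and 0.644 CPM and fell by 2.99 on the log2 scale, called in 1 of the 6 fits that left out a library. Slc16a3, the lactate exporter MCT4, was at 0.257, 0.341 and 0.298 CPM against 4.14, 3.95 and 3.09 CPM (log2 fold change -3.62, standard error 0.25, edgeR adjusted p = 0.00175). Ldhb, a lactate dehydrogenase subunit, fell by 1.05 (by under 2-fold without GFPhi replicate 3), and Tktl1, a transketolase-like protein, fell by 2.55. Pcx, which makes oxaloacetate from pyruvate, rose by 1.24, but no fit that left out a library called it (adjusted p up to 0.148). The glucose transporter Slc2a1 was at 27.9, 26.4 and 25.8 CPM in GFPhi and 26.3, 24.3 and 24.9 CPM in GFPlo libraries, and the hexokinase Hk1 at 279, 251 and 264 against 299, 304 and 266 CPM, both with overlap.

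Genes of lipid and amino acid metabolism were among those that fell. Acox2, a peroxisomal oxidase of branched-chain fatty and bile acid intermediates (chromosome 14 from 8225511 to 8259353), was at 3.86, 4.95 and 4.06 CPM in GFPhi and at 50.7, 51.2 and 51.6 CPM in GFPlo libraries (log2 fold change -3.57, standard error 0.12, edgeR adjusted p = 0.000799). Neither group spread by more than a fraction of the gap between them. Acacb, an acetyl-CoA carboxylase of mitochondria, fell by 1.82 on the log2 scale. Slc7a8, the LAT2 transporter of neutral amino acids, was at 48.3, 30.5 and 35 CPM against 246, 262 and 212 CPM (log2 fold change -2.66, standard error 0.19, edgeR adjusted p = 0.00175). The creatine transporter Slc6a8 fell by 2.46 and the cystine transporter Slc7a11 by 2.00, and Gamt, which makes creatine, fell by 2.38. Ass1, which joins citrulline and aspartate on the way to arginine, was at 14.9, 15.9 and 20.2 CPM against 74.2, 92 and 92.6 CPM. Slc7a11 was lost without any of 5 of the libraries in turn (adjusted p up to 0.145) and Slc6a8 without GFPlo replicate 2 (0.0587), whereas Acox2, Acacb, Slc7a8, Gamt and Ass1 were called in every such fit.

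The 5 largest falls within the metabolic list, which was drawn by symbol pattern and lacks enzymes such as Agpat9, were of transporters and sugar or sulfate transferases. Slco5a1, an organic anion transporter, was at 0.147, 0.239 and 0.0372 CPM in GFPhi and 9.65, 14.1 and 15.9 CPM in GFPlo libraries (log2 fold change -6.49, standard error 0.49, edgeR adjusted p = 0.00189). Sult5a1, a sulfotransferase, had 2 counts in the GFPhi libraries together, a ratio of 52.4 with a 95% exact interval from 14.2 to 438. Mgat5b, which branches glycans, fell by 4.18 and Mfsd4, a sugar transporter-like protein, by 3.81. Slc16a3 was described above.

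**Figure D3:**
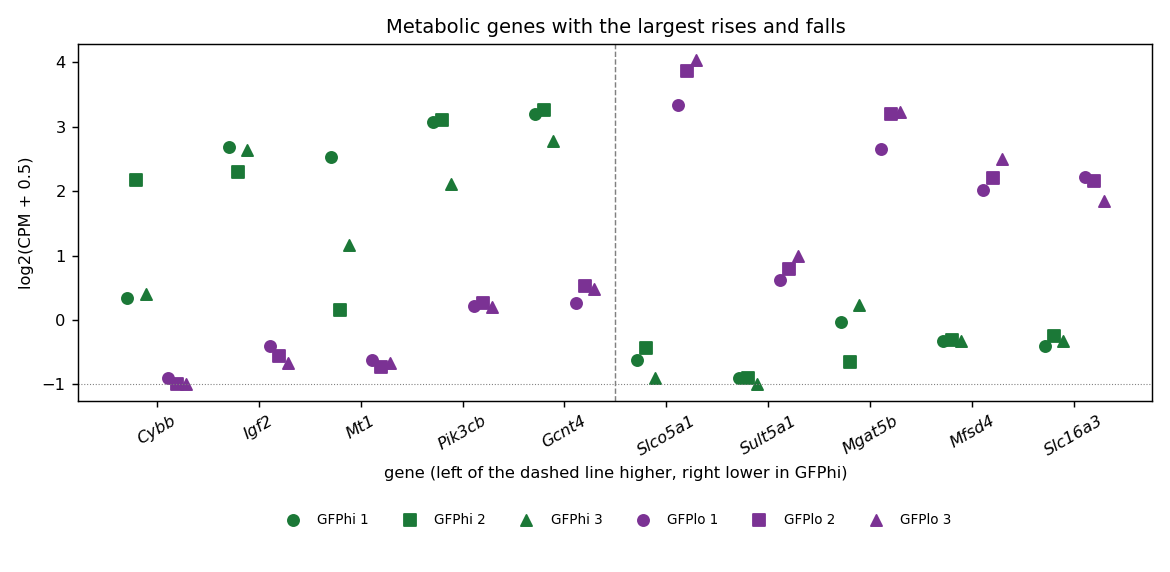
Level of the 5 metabolic genes with the largest rise and the 5 with the largest fall, as log2(CPM + 0.5), a point for each library (green GFPhi, purple GFPlo, shapes for replicates 1 to 3). Cybb is led by GFPhi replicate 2 and Mt1 by GFPhi replicate 1, while Igf2 and Gcnt4 are close to even, and no gene shows overlap of the groups.

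Among metabolic genes that rose, Pik3cb and Gcnt4 held in each GFPhi library. Pik3cb, a catalytic subunit of phosphoinositide 3-kinase, was at 7.9, 8.09 and 3.8 CPM in GFPhi and at 0.666, 0.699 and 0.644 CPM in GFPlo libraries (log2 fold change 3.29, standard error 0.35, edgeR adjusted p = 0.00484). Gcnt4, which forms core 2 branches of O-glycans, was at 8.67, 9.08 and 6.37 CPM against 0.703, 0.943 and 0.902 CPM (log2 fold change 3.23, standard error 0.23, edgeR adjusted p = 0.00175). The sialyltransferase St6gal1 rose by 1.20 (adjusted p 0.054 without GFPlo replicate 2) and B4galnt2, which makes the Sda antigen, by 2.02. Igf2, a growth factor counted here under nutrient sensing, was at 5.95, 4.44 and 5.74 CPM against 0.259, 0.175 and 0.129 CPM (log2 fold change 4.82, standard error 0.31, edgeR adjusted p = 0.00155). Its exons overlap another annotated gene on the same strand, so its reads could be split. Mt1, a metal-binding metallothionein, was at 5.29, 0.614 and 1.75 CPM against 0.148, 0.105 and 0.129 CPM, with GFPhi replicate 1 far above the others. Cybb, the catalytic subunit of the phagocyte oxidase, had 1 count over the GFPlo libraries and 0.772, 4.03 and 0.819 CPM in GFPhi libraries, a ratio of 167 with a 95% exact interval from 29.6 to 6656. The calls of Mt1 and Cybb were lost without any of the GFPlo libraries in turn, with adjusted p up to 0.143 and 0.11, and that of Mt1 also in limma-voom (0.0895).

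Transcription factor genes rose more often than they fell. Of 1266 listed, 750 were tested and 41 called (5.47%, against 6.31% of all tested genes). Of these, 27 were higher (3.6%, against 1.61% of all genes) and 14 lower (1.87%, against 4.7%), and their median log2 fold change was 0.09. Without GFPhi replicate 3, 48 were called higher and 36 lower, and without GFPlo replicates 1, 2 or 3 there were 22, 12 and 16 calls in all. None of the 24 tested Runx, Ets and Bcl11 genes, 5 Ikaros genes, 24 Myc network and E2F genes, 17 forkhead and T-box genes or 14 genes of the LMO2 complex and its progenitor partners was called. Of 332 numbered zinc-finger proteins, 9 rose and 2 fell, and 3 of these 11 were called in each fit that left out a library.

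GFPhi replicate 3 stood apart from replicates 1 and 2 in Lmo2, Lyl1 and Hhex. Lmo2 itself was at 53.8, 29.5 and 285 CPM in GFPhi replicates 1, 2 and 3 and at 35.8, 37.5 and 42.3 CPM in GFPlo libraries, and the counts do not separate transgene from endogenous reads. GFPhi replicate 3 was several-fold above all others, and replicates 1 and 2 lay on either side of the GFPlo libraries (log2 fold change 1.67, standard error 0.82, edgeR adjusted p = 0.213). Lyl1, its bHLH partner, was at 201, 198 and 72.4 CPM against 166, 132 and 108 CPM. Hhex, a homeobox target of LMO2, was at 44.1, 34.8 and 69.1 CPM against 78, 73.4 and 72.5 CPM (edgeR adjusted p = 0.146). Kit, the receptor gene described above, was lower in all 3 GFPhi libraries. Ldb1 was at 361, 332 and 526 CPM against 366, 362 and 328 CPM, and Gata3 at 205, 200 and 153 CPM against 206, 208 and 194 CPM. Tal1 was at or under 0.384 CPM in every library and was not tested. The commitment factors Tcf7 and Bcl11b had log2 fold changes of 0.00 and 0.01 with standard errors of 0.11 and 0.13.

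Rises that were even over GFPhi libraries include Casz1 and Maf. Casz1, a zinc-finger factor, was at 4.23, 3.82 and 4.43 CPM in GFPhi and 0.518, 0.349 and 0.193 CPM in GFPlo libraries (log2 fold change 3.55, standard error 0.35, edgeR adjusted p = 0.00406). It was called in every fit that left out a library. Maf, a bZIP factor, was at 2.9, 3.38 and 5.1 CPM against 0.777, 0.803 and 1.09 CPM, a call lost without GFPlo replicate 2 (adjusted p 0.0762).

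Npas2, Glis3, Klf9, Zbtb10 and Hoxb4 rose in all 3 GFPhi libraries but chiefly in replicate 3. Npas2, a CLOCK-like bHLH factor, was at 1.36, 1.16 and 13.3 CPM in GFPhi and 0.037, 0.0699 and 0.0966 CPM in GFPlo libraries (log2 fold change 6.17 with all libraries and 4.11 without GFPhi replicate 3). Glis3, a Krüppel-like zinc-finger factor, was at 3.86, 2.22 and 16.6 CPM against 0.333, 0.244 and 0.161 CPM, and Klf9 at 1.32, 0.683 and 4.58 CPM against 0.037, 0.0699 and 0.0966 CPM. GFPhi replicate 3 was over 2-fold above both other GFPhi libraries in 8 of the 27 factor genes that rose and in 30 of all 187 genes that rose. The calls of Npas2, Glis3 and Klf9 were lost without any of the GFPlo libraries in turn (adjusted p up to 0.15, 0.119 and 0.12) and that of Klf9 also without GFPhi replicate 1. In limma-voom the adjusted p of Npas2, Glis3 and Klf9 was 0.116, 0.085 and 0.0562. Pax5 and Ciita, the B-lineage factor and the MHC class II coactivator, were led by GFPhi replicate 2, at 1.25, 5.94 and 1.53 CPM and at 1.14, 5.22 and 1.71 CPM in GFPhi replicates 1, 2 and 3. They also lost their calls without any of the GFPlo libraries in turn (adjusted p up to 0.109 and 0.119).

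Ciita acts at class II promoters that carry a Y box, and its called targets H2-Aa and H2-Eb1 rose beside it. H2-Aa was at 4.52, 19.4 and 6.0 CPM in GFPhi and 0.518, 0.244 and 0.0966 CPM in GFPlo libraries, and H2-Eb1 at 3.78, 15.4 and 4.84 CPM against 0.222, 0.314 and 0.193 CPM (log2 fold changes 5.12 and 5.02, edgeR adjusted p = 0.0155 and 0.00989). Both calls were lost without GFPlo replicates 2 or 3, with adjusted p up to 0.0946 and 0.0624. Ciita, H2-Aa and H2-Eb1 were each highest in GFPhi replicate 2, the library with the highest B-lineage sum. H2-Ab1, the partner chain of H2-Aa, was at 5.47, 18.2 and 4.36 CPM against 6.4, 7.86 and 9.69 CPM, so GFPhi replicates 1 and 3 lay below the GFPlo libraries (edgeR adjusted p = 0.803). The 250 bases before the start sites of both called genes are shown from RefSeq (GRCm38.p6), since these genes moved with Ciita, and capitals mark CTGATTGG, the Y-box letters, searched on both strands. The match begins 51 bases before the start of H2-Aa (chr17:34287824-34288073, minus strand) and 62 bases before that of H2-Eb1 (chr17:34305617-34305866, plus strand), and 3.83% of 32851 RefSeq promoters hold these letters in the same window. The promoter of H2-Ab1 is not shown, and any part of these letters in the rises was not tested.
H2-Aa: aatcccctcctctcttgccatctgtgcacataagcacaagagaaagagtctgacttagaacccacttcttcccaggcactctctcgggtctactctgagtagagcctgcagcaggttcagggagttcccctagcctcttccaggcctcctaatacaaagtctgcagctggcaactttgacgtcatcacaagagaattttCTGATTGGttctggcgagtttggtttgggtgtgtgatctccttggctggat
H2-Eb1: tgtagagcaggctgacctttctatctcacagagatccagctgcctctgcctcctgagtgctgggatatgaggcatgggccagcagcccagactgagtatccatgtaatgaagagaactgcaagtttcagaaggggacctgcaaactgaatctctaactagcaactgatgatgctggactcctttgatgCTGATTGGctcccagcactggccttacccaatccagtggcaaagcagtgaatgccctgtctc

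Egr1, Egr2 and Nr4a3, which antigen receptor signals induce, rose, while other members of their families and AP-1 genes were not called. Egr1, a zinc-finger factor of the immediate-early response, was at 82.4, 72.2 and 37.7 CPM in GFPhi and 21.6, 15.2 and 14.8 CPM in GFPlo libraries (log2 fold change 1.90, standard error 0.32, edgeR adjusted p = 0.017). Egr2 was at 1.29, 1.74 and 0.931 CPM against 0.444, 0.524 and 0.58 CPM, and the orphan nuclear receptor Nr4a3 at 5.33, 4.57 and 2.98 CPM against 1.89, 1.61 and 1.55 CPM (edgeR adjusted p = 0.0422 and 0.0254). GFPhi replicate 3 was the lowest GFPhi library for each of the 3 genes and still above every GFPlo library. Egr2 and Nr4a3 were called in 1 of the 6 fits that left out a library, and the adjusted p reached 0.173 and 0.129, while Egr1 was lost without GFPlo replicates 2 or 3 (up to 0.0943). Nr4a1 was at 55.9, 57.9 and 23.5 CPM against 36.5, 31 and 27 CPM, with GFPhi replicate 3 below every GFPlo library (edgeR adjusted p = 0.323). Nr4a2 was at 2.68, 1.43 and 2.98 CPM against 1.26, 0.454 and 0.483 CPM (edgeR adjusted p = 0.0733), and Egr3 did not pass the filter on low counts. Junb was at 88.9, 80.5 and 334 CPM against 96.8, 61.4 and 45.1 CPM, and Jun at 68.1, 68.6 and 262 CPM against 87.1, 77.6 and 56.2 CPM, so GFPhi replicate 3 alone stood above the GFPlo range in both. The inducible heat shock genes of the same list went the other way, with Hspa1a at 3.78, 7.75 and 6.18 CPM against 19.4, 24.5 and 19.1 CPM, a call lost without GFPlo replicates 2 or 3 (adjusted p up to 0.0715). Of 16 immediate-early and dissociation genes tested, 3 were higher and 2 lower at an adjusted p under 0.05, beside 5.37% higher and 9.49% lower among all tested genes, and none of them was so without GFPlo replicates 2 or 3. The 250 bases before Nr4a3 (chr4:48045055-48045304, plus strand, RefSeq, GRCm38.p6) are shown for their 4 copies of TGACG, the letters at the core of cAMP response elements, which capitals mark on either strand. TGACG occurs in 17.8% of promoter windows of this length, and 0.137% hold at least 4 copies. Any part of these copies in the rise of Nr4a3 was not tested.
Nr4a3: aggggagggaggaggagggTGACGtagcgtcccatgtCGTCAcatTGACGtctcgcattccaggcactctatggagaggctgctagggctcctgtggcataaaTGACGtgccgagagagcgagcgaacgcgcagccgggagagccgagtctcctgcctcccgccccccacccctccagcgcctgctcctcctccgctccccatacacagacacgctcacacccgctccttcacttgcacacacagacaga

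Falls among factors were fewer and included developmental regulators. Dmrtc2, a DM-domain factor, had 3 counts in the GFPhi libraries together and was at 3.81, 6.57 and 6.47 CPM in GFPlo libraries, a ratio of 158 with a 95% exact interval from 53.6 to 767. Plagl1, an imprinted zinc-finger factor, had 2 counts in GFPhi libraries, a ratio of 49.5 with an interval from 13.4 to 414, and lost its call without GFPlo replicate 2 (adjusted p 0.0584). Dlx1, a homeobox factor of forebrain and limb, was at 1.62, 2.66 and 0.521 CPM in GFPhi and 34.4, 48.5 and 57.4 CPM in GFPlo libraries (log2 fold change -4.86, standard error 0.55, edgeR adjusted p = 0.00546). GFPhi replicate 3 was the lowest library in each of these 3 genes. Cebpe, a granulocyte factor, fell by 4.52 and Grhl2, an epithelial factor on chromosome 15, fell by 4.51, and both calls were lost without GFPhi replicate 1 or any of the GFPlo libraries in turn (adjusted p up to 0.0811 and 0.116). Aire, which drives tissue antigens in thymic epithelium, was at 0.698, 1.3 and 0.41 CPM against 7.88, 7.89 and 7.5 CPM, while the epithelial genes Foxn1 and Psmb11 stayed at or under 3 counts in every library. Tcf7l1, a TCF factor of the Wnt pathway, was at 0.588, 0.717 and 0.708 CPM against 3.62, 3.49 and 3.7 CPM (log2 fold change -2.42, standard error 0.19, edgeR adjusted p = 0.00207). Ppara, the receptor that drives fatty acid oxidation genes, was at 0.882, 1.13 and 0.521 CPM against 5.1, 4.75 and 5.73 CPM and fell by 2.61.

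**Figure D4:**
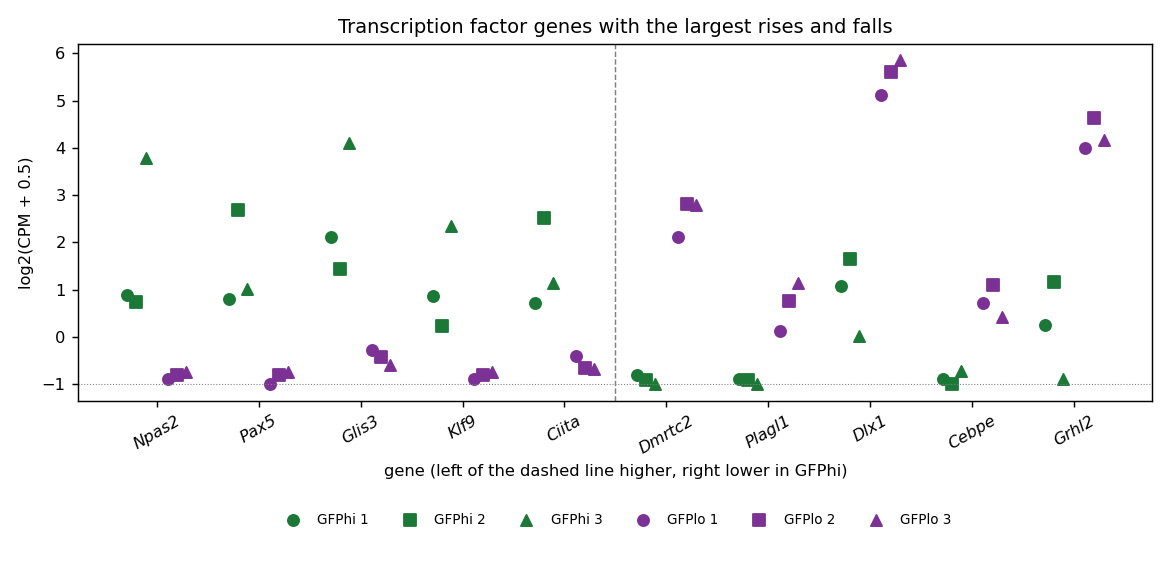
Level of the 5 transcription factor genes with the largest rise and the 5 with the largest fall, as log2(CPM + 0.5), a point for each library (green GFPhi, purple GFPlo, shapes for replicates 1 to 3). Npas2, Glis3 and Klf9 are highest in GFPhi replicate 3 and Pax5 and Ciita in GFPhi replicate 2, and the groups do not overlap in any of the 10 genes.

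GFPhi replicate 3 did not follow replicates 1 and 2 in every gene. GFPhi replicates 1 and 2 were both more than 2-fold above every GFPlo library in 166 tested genes, on log2(CPM + 0.5), and replicate 3 was also above the GFPlo libraries in 98 of them, within their range in 14 and below all of them in 54. They were more than 2-fold below in 465 genes, where replicate 3 was also below in 419, within the range in 22 and above in 24. These counts describe 1 library and carry no test. Taken from the other side, replicate 3 was more than 2-fold above every GFPlo library in 392 genes, of which 244 were above in replicates 1 and 2 too and 59 were below, and more than 2-fold below every GFPlo library in 798 genes, of which 610 were below in replicates 1 and 2 too and 99 were above.

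Among genes of the 3 classes with a mean of at least 1 CPM, replicate 3 lay farthest below replicates 1 and 2 in Plce1, Epas1, Slc40a1, Fbp1 and Slc15a2. Plce1, a phospholipase C that also activates RAP1, was at 37.6, 38.3 and 0.0745 CPM in GFPhi replicates 1, 2 and 3 and at 0.518, 0.14 and 0.0322 CPM in GFPlo libraries. Epas1, the hypoxia factor HIF-2 alpha, was at 52.7, 51.3 and 1.27 CPM against 6.51, 5.48 and 4.64 CPM. Slc40a1, the iron exporter ferroportin, was at 44.7, 32.6 and 1.15 CPM against 12.9, 14.7 and 11.4 CPM, and Fbp1, an enzyme of gluconeogenesis, at 50.3, 51.4 and 1.9 CPM against 36.4, 33.1 and 31.2 CPM. In each of these except Plce1, replicate 3 lay below every GFPlo library while replicates 1 and 2 lay above. Slc15a2, a peptide transporter, was at 46, 27.2 and 1.3 CPM against 42.1, 52.7 and 31.4 CPM. None of these passed over all 6 libraries in edgeR without a block (edgeR adjusted p from 0.0671 for Plce1 to 0.98 for Fbp1). Plce1 passed in DESeq2 (adjusted p 0.00188), and Plce1, Epas1 and Slc40a1 were called without replicate 3.

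Within the same classes, the opposite gap was widest in Trpa1, Ggt5, Npas2, Lrrc4b and Ccr9. Ccr9, the receptor for the thymic chemokine CCL25, was at 4.48, 4.78 and 36.4 CPM in GFPhi replicates 1, 2 and 3 and 37.4, 52.7 and 69.3 CPM in GFPlo libraries. Replicate 3 lay just under the GFPlo range and the other GFPhi libraries far below it, so its fall of 3.51 on the log2 scale without replicate 3 (edgeR adjusted p = 0.00029) was not called with it (edgeR adjusted p = 0.2). Its exons overlap another annotated gene. Lrrc4b, a synaptic adhesion molecule, was at 13.4, 5.8 and 73 CPM against 6.18, 5.73 and 6.7 CPM. Trpa1, an irritant-sensing channel, was at 1.95, 0.478 and 17.5 CPM against 1.96, 1.68 and 1.19 CPM, and Ggt5, which cleaves leukotriene C4, at 3.12, 3.86 and 36.5 CPM against 7.84, 7.89 and 7.05 CPM. Cd163l1, a scavenger receptor of gamma-delta T cells, was at 1499, 1551 and 131 CPM against 316, 228 and 150 CPM, with replicate 3 below every GFPlo library. Cd44, whose product is absent from DN3 cells by the sorting gate, was at 27.8, 31.1 and 4.17 CPM against 14.5, 16.3 and 19.2 CPM.

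**Figure D5:**
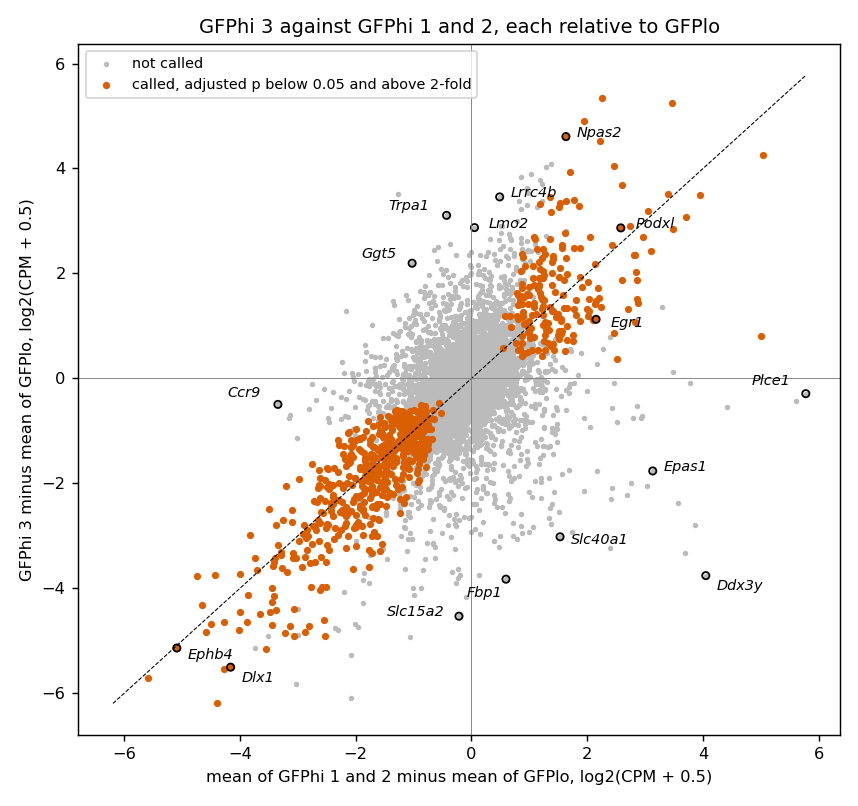
Difference from the mean of the GFPlo libraries in log2(CPM + 0.5), for the mean of GFPhi replicates 1 and 2 (horizontal) and for GFPhi replicate 3 (vertical), a point for each of 11581 tested genes, with called genes in orange and the dashed line at equality. Called genes lie in the quadrants where both agree in direction, and the named genes off the diagonal, such as Plce1, Epas1 and Ccr9, differ between replicate 3 and the others.

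The markers of cycling cells did not pass the test, while the inhibitor gene Cdkn1c fell. All 15 cycling-cell markers were tested and none had an adjusted p under 0.05, beside 5.37% higher and 9.49% lower among all tested genes. Each had a log2 fold change below 0, with a median of -0.33. Without GFPhi replicate 3 these changes ranged from -0.27 for Kif11 to 0.02 for Ccna2, with -0.13 for Mki67. Mki67, the proliferation antigen, was at 1051, 1208 and 654 CPM in GFPhi and 949, 1261 and 1513 CPM in GFPlo libraries, so GFPhi replicates 1 and 2 lay within the GFPlo range and replicate 3 below it (log2 fold change -0.35, standard error 0.27, edgeR adjusted p = 0.394). The summed level was 3419, 3927 and 2253 CPM against 3102, 4134 and 4890 CPM. Cdkn1a, the CDK inhibitor p21, was at 35.8, 29.9 and 6.56 CPM against 12, 11.1 and 8.08 CPM, with replicate 3 under the GFPlo libraries (edgeR adjusted p = 0.207), and was called without replicate 3 (edgeR adjusted p = 0.000624). Cdkn1c, the inhibitor p57, went the other way in all 3 GFPhi libraries, at 0.294, 0.375 and 0.41 CPM against 1.15, 1.33 and 1.77 CPM (log2 fold change -1.96, standard error 0.30, edgeR adjusted p = 0.0125), a call lost without GFPlo replicates 2 or 3 (up to 0.0749). Myc had a log2 fold change of -0.25 (standard error 0.08, edgeR adjusted p = 0.0733).

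Few genes of the remaining marker lists passed the test. Of 8 early thymocyte genes tested 1, Kit, was lower at an adjusted p under 0.05, a threshold that 5.37% of all tested genes passed as higher and 9.49% as lower. Ptcra, the pre-T-cell receptor alpha chain, was at 30.8, 34.7 and 48.1 CPM in GFPhi and 23, 26.4 and 28.9 CPM in GFPlo libraries (edgeR adjusted p = 0.103), and Notch1 was at 2720, 2705 and 2355 CPM against 2665, 2387 and 2084 CPM. For the 6 NK and innate lymphoid genes tested the median difference was 1.07 on the log2 scale, and the sum of the list was 642, 392 and 780 CPM in GFPhi and 344, 349 and 304 CPM in GFPlo libraries, without overlap. The single gene of that list past an adjusted p of 0.05, Nkg7, a cytotoxic granule protein, was higher at 194, 164 and 180 CPM against 108, 105 and 87.8 CPM (edgeR adjusted p = 0.0075), while the defining genes Ncr1 and Eomes were at or under 3 counts in every library. The gamma-delta and innate-like list had a median of 0.91 over 4 tested genes and a sum of 1797, 1835 and 401 CPM against 636, 505 and 396 CPM. Most of the sum in GFPhi replicates 1 and 2 came from Cd163l1, described above. Without Cd163l1 the sum lay between 270 and 298 CPM in GFPhi libraries, within the range of the GFPlo libraries. Trdc and the listed Tcrg constant genes were not among the counted genes, and Il23r and Il17a were at or under 3 counts in every library. Gzmb, granzyme B, was at 238, 18.7 and 443 CPM against 26.9, 33.1 and 19 CPM, with GFPhi replicate 2 below every GFPlo library. Of 4 myeloid genes tested 1, Cybb, was higher, of 5 dendritic genes 2, H2-Aa and H2-Eb1, of 4 stromal genes 1, Epcam, none of which was so without GFPlo replicates 2 or 3, and of 8 erythroid and platelet genes none, with sums of 14.8, 6.38 and 6.11 CPM against 16.9, 7.44 and 11.2 CPM for the last list. The myeloid sum was 9.81, 13 and 9.72 CPM in GFPhi and 11.1, 12 and 11.9 CPM in GFPlo libraries.

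Outside the 3 classes, the largest changes were of the same size. Arhgef12, an exchange factor for RhoA, was at 33.4, 3.62 and 8.19 CPM in GFPhi and 0.296, 0.279 and 0.225 CPM in GFPlo libraries, and Fasl, the death ligand, at 2.72, 1.77 and 20.4 CPM against 0.407, 0.105 and 0.129 CPM. Ctnnd1, p120 catenin, was at 1.25, 0.717 and 5.7 CPM against 0.111, 0 and 0.0966 CPM, and overlaps another annotated gene. A single GFPhi library led each of these rises. Their calls were lost without any of the GFPlo libraries in turn (adjusted p up to 0.172) and in limma-voom (adjusted p 0.117, 0.134 and 0.0703 for Arhgef12, Fasl and Ctnnd1). Those of Fasl and Ctnnd1 were also lost without GFPhi replicate 1 (edgeR adjusted p = 0.0624 and 0.0677). Falls were steadier. Reln, an extracellular guidance protein, was at 0.184, 0.205 and 0.0745 CPM against 6.55, 10.3 and 12.8 CPM (log2 fold change -5.96, standard error 0.44, edgeR adjusted p = 0.00182). Aif1l, an actin-bundling protein, fell by 7.66, Prune2 by 6.08 and Agpat9, a glycerol-3-phosphate acyltransferase that overlaps another annotated gene, by 6.04. Rimbp2, a presynaptic scaffold, had 1 count in GFPhi libraries, a ratio of 126 with a 95% exact interval from 22.2 to 5011. Aif1l, Reln, Prune2, Agpat9 and Rimbp2 were called in each fit that left out a library.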

How the data were processed

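Reads of the 6 poly-A libraries had been aligned and counted per gene by the authors, whose processing notes name STAR 2.4.2a, featureCounts and mm10. The deposited values are raw counts, and the name of the table marks them as counted on the reverse strand. Of 22114 gene identifiers, 98.6% matched GENCODE M21 (GRCm38), the source of positions. Groups and replicate numbers came from the labels. Genes with low counts were left out (filterByExpr, minimum count 10, minimum total 15) and GFPhi was tested against GFPlo with edgeR 4.0.16 (TMM, quasi-likelihood, Benjamini-Hochberg over all tested genes). The methods do not tie a library to a cohort, so p-values measure the spread between these libraries. The fit was also run on simulated counts drawn with the same spread in every library, so that run held no outlying library.

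Families were defined by symbol patterns. Named genes are the 5 largest rises and falls per class, called, without overlap and with at least 1 CPM in the higher group, the 5 widest gaps of GFPhi replicate 3 in each direction among genes of the 3 classes with a mean of at least 1 CPM, and listed genes. Other members were chosen after their values were seen. The members and lists were chosen with earlier results of these data known. Alternatives were RLE, DESeq2 1.42.0, limma-voom 3.58.1, other filters, the replicate block, chromosomes 2 and 15 left out, and each library left out. Some withheld items are not reported here.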

Additional observations from a re-analysis of the deposited data

How the results depend on the processing

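The counts depended most on single libraries. With each library left out in turn, the calls past an adjusted p of 0.01 and 2-fold ranged from 0 to 1035 (261 with all), those past 0.05 from 196 to 1350 (731), surface calls from 22 to 188 (101), metabolic calls from 29 to 157 (81) and transcription factor calls from 12 to 84 (41). The highest counts came without GFPhi replicate 3 and the lowest without GFPlo replicate 2, where, as without GFPlo replicate 3, no gene passed 0.01 in edgeR (2428 and 2869 had an unadjusted p under 0.05). A group left with 2 libraries shares the spread of the other. DESeq2 called 742 genes at 0.01 and gave no adjusted p for Npas2 and Ggt5. Replicate numbers did not pair the libraries, since deviations of same-numbered libraries correlated by 0.07, -0.08 and 0.10 across genes. With the replicate block, 0 genes passed 0.01 and 2-fold (3216 had an unadjusted p under 0.05), 328 passed 0.05, and 41 surface, 42 metabolic and 20 transcription factor genes were called. The block left the adjusted p of these named genes above 0.05: Cr2 (0.0535), Kcna4 (0.0905), Mt1 (0.053), Glis3 (0.0736), Ciita (0.0737), Plagl1 (0.0507), Cebpe (0.0796), Grhl2 (0.0653), Fasl (0.0924), H2-Aa (0.058) and Il2ra (0.0502), and that of Plce1 below it (0.0424). RLE size factors, limma-voom, both other filters and leaving out chromosomes 2 and 15 kept each of these counts within 1.5 times. limma-voom ended the calls of 8 named genes, Cd74, Mt1, Npas2, Glis3, Klf9, Arhgef12, Fasl and Ctnnd1, with adjusted p from 0.0562 to 0.134. The cause of these shifts was not tested.

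Among named genes the direction reversed where the main change was near 0 or GFPhi replicate 3 was far off. In limma-voom the log2 fold change was -0.0579 for Slc40a1, -0.92 for Fbp1, -0.0213 for Ggt5, -0.0048 for Tcf7, -0.00049 for Bcl11b and -0.0854 for Cd44. With the replicate block it was -0.63 for Fbp1, -0.0699 for Ggt5, -0.0044 for Tcf7 and -0.00088 for Bcl11b, and with chromosomes 2 and 15 left out -0.026 for Tcf7 and -0.0123 for Bcl11b. With a library left out, it ranged from -0.36 to 0.61 for Fbp1, from -0.41 to 2.59 for Trpa1, from -1.11 to 1.42 for Ggt5, from -0.0144 to 0.34 for Ldb1, from -0.19 to 0.00351 for Gata3, from -0.0462 to 0.10 for Tcf7, from -0.13 to 0.12 for Bcl11b and from -0.0579 to 0.83 for Cd44. At these depths a gene under about 0.1 CPM in a library rests on 3 counts or fewer.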
